A study of Mus musculus with 16 samples.

Results

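The immunoglobulin heavy variable (Ighv) genes are the V segments of the mouse heavy chain locus. They were taken here as every gene whose symbol starts with Ighv, which gave 185 of the 53342 genes in each library. The libraries were RNA-seq of bone marrow LSK cells, a progenitor fraction sorted as Sca1+ and c-Kit+ and lacking B220, CD3, CD4, CD5 and CD8, with 3000 to 10000 cells per replicate. Mice were 8 to 14 weeks old on the C57BL/6J background, and marrow was taken 10 days after injection. Of the 4 groups, Gata2 +9.5(Ets)-/- mutants given 5-fluorouracil (5-FU, an antimetabolite toxic to cycling cells) at 250 mg/kg had 3 libraries, wild-type (WT) mice given the same dose had 3, mutants given PBS had 5 and WT mice given PBS had 5. The mutation lies in an Ets motif of an intronic Gata2 enhancer. The labels do not say which libraries came from separate animals, so p-values measure the spread between libraries.

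A heavy chain gene is assembled by V(D)J recombination: a B cell precursor cuts and joins one V, one D and one J segment on an allele, and the joined V exon is then transcribed with a constant gene such as Ighm. An unrecombined V segment can also be transcribed at a low level from its own promoter, as germline transcription. Antibody-secreting cells hold so much immunoglobulin RNA that a few of them can set the V composition of a bulk sample, and a V gene's share then weighs RNA and not cells. Ighv11-2, paired with the kappa gene Igkv14-126, and Ighv12-3, paired with Igkv4-91, are known in mice for B-1 cell antibodies that bind phosphatidylcholine, and Ighv7-1 is known for antibodies that bind phosphorylcholine.

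All 185 IDs were found in GENCODE M21 (GRCm38) with the same symbol. They lie on chromosome 12 between 113572927 and 116010093, a stretch of 2437 kb, with 183 on the minus strand. The annotation calls 113 of them V genes, 70 V pseudogenes and 2 other V-like genes, and the symbols fall in 16 families. No count was found for 46 of them in any library, and 5 (Ighv11-2, Ighv6-3, Ighv1-64, Ighv1-74 and Ighv1-77) were above 0 in all 16 libraries. The 5 genes that led at least 1 library are shown first, each as the last 290 bases of its longest GENCODE M21 transcript, 5′ to 3′. The capitals mark the codons for tyrosine, tyrosine or phenylalanine, and cysteine that close framework 3, just before the join to D.
Ighv11-2: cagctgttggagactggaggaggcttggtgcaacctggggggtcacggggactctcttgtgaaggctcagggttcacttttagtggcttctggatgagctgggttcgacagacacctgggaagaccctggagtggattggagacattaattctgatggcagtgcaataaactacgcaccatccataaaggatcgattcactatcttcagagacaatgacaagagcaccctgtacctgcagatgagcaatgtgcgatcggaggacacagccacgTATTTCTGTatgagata
Ighv7-1: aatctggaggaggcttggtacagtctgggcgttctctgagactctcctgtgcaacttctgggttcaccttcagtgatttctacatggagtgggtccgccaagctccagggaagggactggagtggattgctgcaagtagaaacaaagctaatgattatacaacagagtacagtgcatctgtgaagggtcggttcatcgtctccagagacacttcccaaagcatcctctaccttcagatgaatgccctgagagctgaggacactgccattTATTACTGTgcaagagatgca
Ighv5-16: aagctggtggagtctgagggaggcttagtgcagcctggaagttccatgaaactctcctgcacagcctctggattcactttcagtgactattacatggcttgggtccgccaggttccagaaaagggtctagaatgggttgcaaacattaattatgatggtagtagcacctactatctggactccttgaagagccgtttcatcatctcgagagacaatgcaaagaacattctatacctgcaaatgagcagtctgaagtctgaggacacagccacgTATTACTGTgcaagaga
Ighv1-49: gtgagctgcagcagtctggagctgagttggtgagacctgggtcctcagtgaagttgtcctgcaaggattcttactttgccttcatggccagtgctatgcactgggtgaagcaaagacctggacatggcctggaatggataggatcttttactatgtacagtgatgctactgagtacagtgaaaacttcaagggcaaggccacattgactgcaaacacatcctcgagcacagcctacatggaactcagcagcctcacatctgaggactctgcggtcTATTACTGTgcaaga
Ighv1-64: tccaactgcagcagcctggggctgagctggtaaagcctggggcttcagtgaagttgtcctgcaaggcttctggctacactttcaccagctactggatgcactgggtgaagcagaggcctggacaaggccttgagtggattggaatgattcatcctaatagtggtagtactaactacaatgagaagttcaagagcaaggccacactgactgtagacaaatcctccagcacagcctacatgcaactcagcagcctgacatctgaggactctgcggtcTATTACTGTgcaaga
The genes of Ighv11-2, Ighv7-1, Ighv5-16, Ighv1-49 and Ighv1-64 lie at chr12:114048241-114048812, chr12:113896408-113896946, chr12:113838526-113839010, chr12:115055223-115055656 and chr12:115507545-115508031, all on the minus strand.

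Reads of similar V genes can be confused, so the closest relative of each was sought. In alignments of these stretches Ighv7-1 was 87.3% identical to Ighv7-3, Ighv5-16 86.2% identical to Ighv5-12, Ighv1-49 82.3% identical to Ighv1-78 and Ighv1-64 95.9% identical to Ighv1-72. Ighv11-2 was 98.6% identical to Ighv11-1, with 4 differences. The last 150 bases of both hold 2 of these differences, in capitals here.
Ighv11-2: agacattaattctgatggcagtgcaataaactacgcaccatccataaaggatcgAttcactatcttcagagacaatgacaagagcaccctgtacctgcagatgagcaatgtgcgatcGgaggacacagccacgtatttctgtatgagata
Ighv11-1: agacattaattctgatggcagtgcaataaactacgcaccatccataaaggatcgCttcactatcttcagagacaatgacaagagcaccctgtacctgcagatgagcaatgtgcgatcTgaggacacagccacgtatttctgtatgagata
Of the 101-base windows in the Ighv11-2 transcript 82.8% occurred in no other transcript, and Ighv11-1 held at most 0.232% of the Ighv counts of a library. For 138 of the 185 genes every such window was unique. How the counting divided reads between close relatives is not given in the sources used here.

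Total expected counts ran from 19370200 to 28883400 per library. Kit and Ly6a (Sca1), which define the gate, were expressed in every library, Kit at 95.5 to 571 counts per 1000000 (CPM) and Ly6a at 114 to 3785 CPM. B cell and plasma cell genes were present as well, and their values stand beside the results they move with. The enhancer mutation leaves the Gata2 transcript's own sequence intact, so Gata2 counts do not check the genotype labels. Gata2 stood at 168 to 208 CPM in mutant 5-FU libraries, 192 to 224 in WT 5-FU libraries, 48.4 to 167 in mutant PBS libraries and 54.0 to 113 in WT PBS libraries.

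Ighv RNA made up between 0.257 and 2.13% of all counts in 13 libraries, and at most 0.0320% in the 3 WT libraries after 5-FU. Ighv genes held 1.64, 1.11 and 0.339% of the counts in the 3 mutant 5-FU libraries, against 0.0105, 0.00298 and 0.0320% in the 3 WT 5-FU libraries. They held 1.90, 1.55, 1.10, 0.791 and 0.257% in mutant PBS libraries, against 2.08, 1.88, 0.601, 2.13 and 0.509% in WT PBS libraries. The lowest mutant 5-FU library was above the highest WT 5-FU library, whereas the 2 genotypes overlapped after PBS. Behind these shares stood 413705, 320914 and 90258 Ighv counts in mutant 5-FU libraries, but only 2516, 841 and 6447 in WT 5-FU libraries. The WT 5-FU compositions given here therefore rest on few counts, and their intervals (95%, Wilson) cover counting error only. In bulk RNA, fewer cells of a type and less RNA per cell cannot be told apart. The Ighv share also does not stand for all immunoglobulin RNA. The kappa constant gene Igkc stood at 366854 CPM in the third WT PBS library, which had 0.601% Ighv. It stood at 62524 CPM in the fourth, which had 2.13%. Igkc and the Ighv share were both lowest in the WT 5-FU libraries.

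The mean Ighv share was 1.03 ± 0.654% in mutant and 0.0151 ± 0.0150% in WT 5-FU libraries (SD, n = 3 each), which gave p = 0.1 in the two-sided exact permutation test, the smallest that 3 against 3 allows. In WT mice it was 0.0151 ± 0.0150% after 5-FU (SD, n = 3) and 1.44 ± 0.814% after PBS (SD, n = 5), with no overlap (exact permutation p = 0.0357, adjusted p = 0.4 over 16 tests). In mutants the means after 5-FU and PBS were 1.03 ± 0.654% (SD, n = 3) and 1.12 ± 0.643% (SD, n = 5), a difference of -0.0897 percentage points that was well within the spread (exact permutation p = 0.929). After PBS the mutant mean was 1.12 ± 0.643% and the WT mean 1.44 ± 0.814% (SD, n = 5 each, exact permutation p = 0.5). Sample names start with 0 in all mutant 5-FU libraries, in no WT 5-FU library and in 3 of 5 libraries of either PBS group. What this marks is not stated, and after 5-FU it and genotype cannot be told apart. The sample names also carry a number, 507 in all mutant 5-FU libraries and 509, 509 and 715 in WT 5-FU libraries. It was 507, 507, 702, 707 and 707 in mutant PBS libraries, against 607, 607, 629, 715 and 715 in WT PBS libraries. The genotypes shared no such number within a treatment, so it and genotype cannot be told apart after PBS either. Among WT libraries without the leading 0, the 5-FU minus PBS difference in Ighv share was -1.30 points (3 against 2 libraries, exact permutation p = 0.1), and among mutant libraries with it -0.487 points (3 against 3, exact permutation p = 0.5). The 16 tests cover 4 measures in 4 comparisons, and none passed the threshold of 0.05 after Benjamini-Hochberg adjustment, the lowest adjusted p being 0.4.

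**Figure D1:**
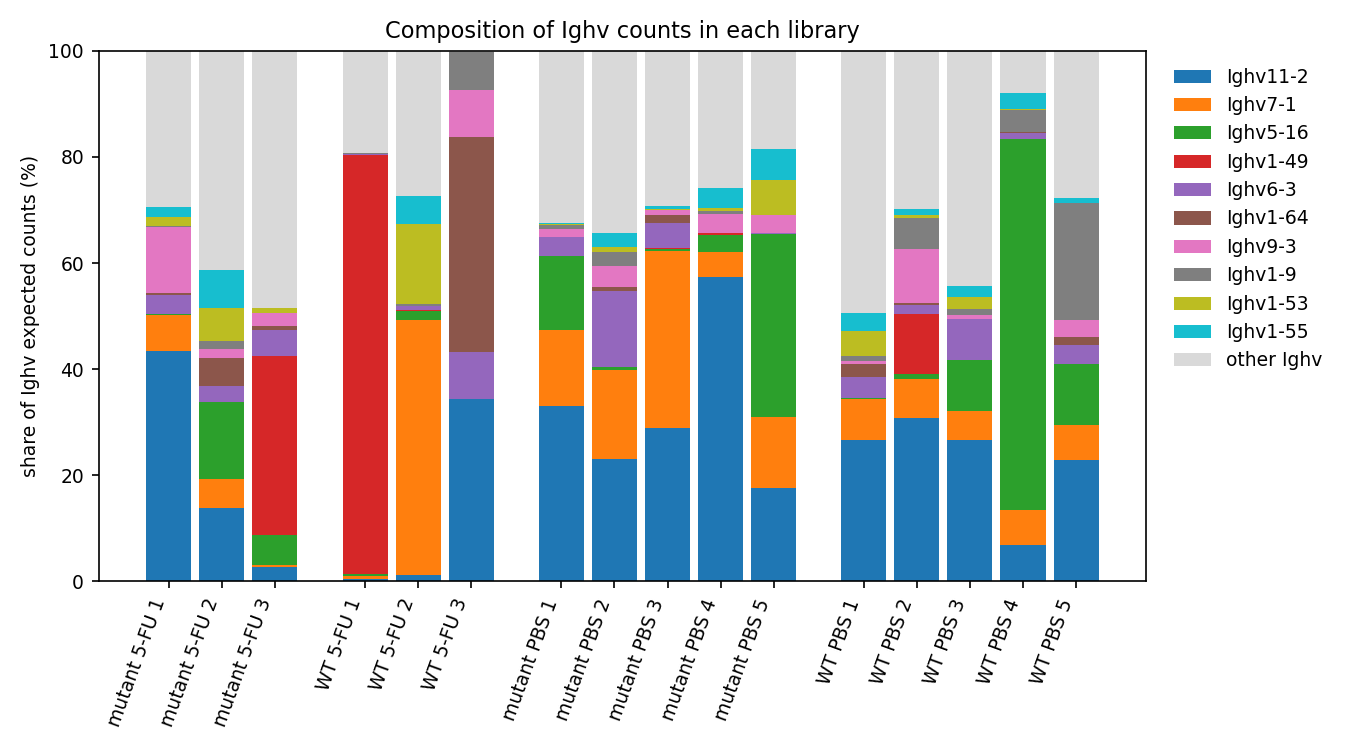
Share of each of the 10 leading Ighv genes in the Ighv expected counts (y axis, %) of each library (x axis, grouped as mutant 5-FU, WT 5-FU, mutant PBS and WT PBS), with all other Ighv genes in grey. Ighv11-2, in dark blue, is a large block in most PBS libraries, while each WT 5-FU library has a different leading gene.

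A few V genes held most of the Ighv RNA, and 1 of them recurred in most libraries. Ighv11-2 was the leading gene in 8 of 16 libraries and among the 3 leading genes in 13. It held at least 1% of Ighv counts in 15 libraries, in the second WT 5-FU library on 11 of 841 counts (0.732 to 2.33%). Its mean share over all 16 was 23.1 ± 15.7% (SD). Next by mean share came Ighv7-1 with 11.1%, Ighv5-16 with 10.4%, Ighv1-49 with 7.81%, Ighv6-3 with 3.87%, Ighv1-64 with 3.36%, Ighv9-3 with 3.34%, Ighv1-9 with 2.97%, Ighv1-53 with 2.52% and Ighv1-55 with 2.34%. Together these 10 genes held between 50.6 and 99.7% of Ighv counts in a library, with a median of 70.7%. The 70 annotated pseudogenes held between 0.0114 and 0.713%.

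Ighv11-2 held 43.4, 13.8 and 2.68% of Ighv counts in mutant 5-FU libraries, against 0.517, 1.31 and 34.4% in WT 5-FU libraries. In mutant PBS libraries it held 33.0, 23.0, 28.98, 57.3 and 17.6%, against 26.7, 30.8, 26.7, 6.80 and 22.9% in WT PBS libraries. It stood above 15% in 9 of the 10 PBS libraries, the exception being the fourth WT PBS library, whereas after 5-FU it ran from under 1% to over 40%. The group means were 31.997 ± 15.3% in mutant and 22.8 ± 9.36% in WT PBS libraries (SD, n = 5 each), with ranges that overlapped (exact permutation p = 0.341). Means were 20.0 ± 21.1% in mutant and 12.1 ± 19.3% in WT 5-FU libraries (SD, n = 3 each, exact permutation p = 0.5), so that no group stood apart in this share.

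Shares of counts favour longer transcripts, and the annotated Ighv11-2 transcript of 461 bases is longer than those of Ighv7-1 (363), Ighv5-16 (380), Ighv1-49 (351) and Ighv1-64 (405). Per length, as TPM, Ighv11-2 led 6 libraries, and the leading gene was the same as by counts in 13 of 16. By TPM Ighv7-1 led the second mutant PBS library, with 17.88% against 17.82% for Ighv11-2, Ighv1-9 led the fifth WT PBS library and Ighv1-80 the second mutant 5-FU library. The TPM share of Ighv11-2 ran from 0.340% to 49.5%.

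The other leading genes differed from library to library. Ighv5-16 held 69.9% of Ighv counts in the fourth WT PBS library (69.74 to 69.97%), 34.6% in the fifth mutant PBS library and 14.4% in the second mutant 5-FU library, where it also led, but 0.244% in the first WT PBS library. Ighv7-1 was steadier in the 5 WT PBS libraries only, between 5.42 and 7.62%. It held between 4.83 and 33.2% in the 5 mutant PBS libraries, where it led the third. After 5-FU it held 48.0% in the second WT library and had 0 counts in the third. Ighv1-49 led the third mutant 5-FU library with 33.7% and the first WT 5-FU library with 79.0% (77.4 to 80.6%), held 11.5% in the second WT PBS library and was under 0.3% in the 13 others. These genes were thus abundant in some libraries of several groups and nearly missing from other libraries of the same groups.

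Each WT 5-FU library had its own small set of V genes. In the first, Ighv1-49 (79.0%), Ighv12-3 (9.98%) and Ighv1-77 (3.50%) held 92.5% of the 2516 Ighv counts. In the second, Ighv7-1 held 48.0% (44.7 to 51.4%), Ighv1-75 21.0% and Ighv1-53 15.1% of the 841 counts. In the third, Ighv1-64 held 40.6% (39.4 to 41.8%), Ighv11-2 34.4% and Ighv6-3 8.81% of the 6447 counts. No gene was among the 3 leading genes of more than 1 of these libraries. In the 3 mutant 5-FU libraries the leading sets were Ighv11-2, Ighv9-3 and Ighv3-6 with 63.8% of Ighv counts, Ighv5-16, Ighv11-2 and Ighv1-80 with 41.8%, and Ighv1-49, Ighv10-1 and Ighv1-81 with 57.2%.

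Ighv12-3, the other gene known for phosphatidylcholine binding, reached 9.98% in the first WT 5-FU library, 6.51% in the fifth mutant PBS library and 1.83% in the second mutant PBS library, and stayed below 0.6% elsewhere. Its known kappa partner Igkv4-91 held 0 of the Igkv counts in that WT 5-FU library and 0.0153% in the fifth mutant PBS library. It held 0.574% in the second mutant PBS library, and its highest share, 2.02%, was in the first mutant PBS library, where Ighv12-3 held 0.291%. Ighv12-3 stood at 60.6, 360.3, 120.5, 0.360 and 125 CPM in mutant PBS libraries, against 4.34, 4.57, 0.181, 0 and 0 CPM in WT PBS libraries. The ranges overlapped, and it was not among the genes that passed the test described further on.

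**Figure D2:**
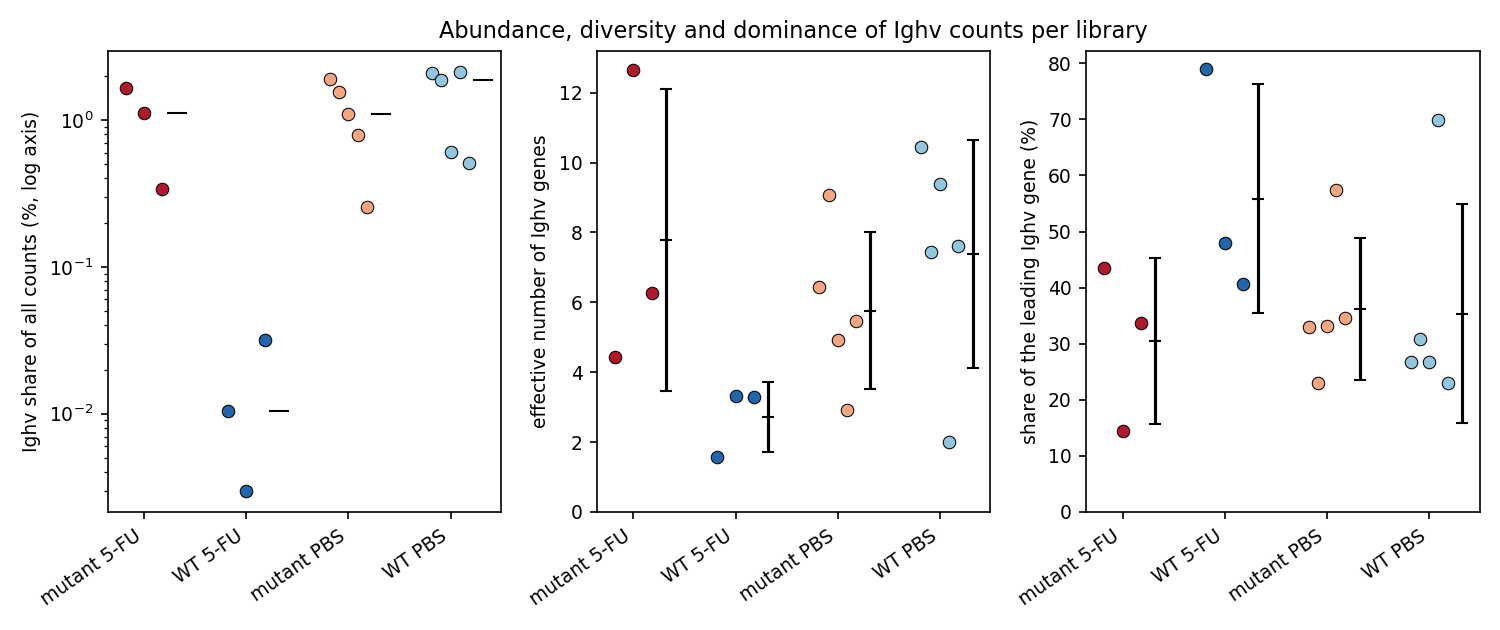
Ighv share of all counts (left, %, log axis), effective number of Ighv genes (middle) and share of the leading Ighv gene (right, %), with 1 point per library for mutant 5-FU, WT 5-FU, mutant PBS and WT PBS. Black dashes are medians on the left, and bars are means with SD in the other panels. The 3 WT 5-FU libraries lie below all others on the left and below 4 effective genes in the middle.

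Diversity was measured as the effective number of Ighv genes, the inverse Simpson index corrected for sample size, which is the number of equally abundant genes that would give the observed dominance. It was 4.44, 12.6 and 6.26 in mutant 5-FU libraries, against 1.57, 3.33 and 3.29 in WT 5-FU libraries. It was 6.44, 9.06, 4.92, 2.93 and 5.45 in mutant PBS libraries, against 10.45, 7.45, 9.40, 2.00 and 7.62 in WT PBS libraries. The 5-FU genotypes did not overlap, but the 2 PBS groups did, and the lowest WT PBS library, the one with 69.9% Ighv5-16, fell among the WT 5-FU values.

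The mean effective number was 7.78 ± 4.31 in mutant and 2.73 ± 1.00 in WT 5-FU libraries (SD, n = 3 each), a difference of 5.05 with exact permutation p = 0.1, the smallest possible. In WT mice it was 2.73 ± 1.00 after 5-FU (SD, n = 3) and 7.38 ± 3.26 after PBS (SD, n = 5, exact permutation p = 0.0893). It was 5.76 ± 2.25 in mutant and 7.38 ± 3.26 in WT PBS libraries (SD, n = 5 each, exact permutation p = 0.365). The low depth of WT 5-FU libraries bears less on this index than on the number of genes seen. Thinned to 841 Ighv counts per library, the expected number of genes was 32.02 to 40.4 in mutant 5-FU, 7.25 to 34.0 in WT 5-FU, 23.2 to 53.2 in mutant PBS and 29.4 to 64.6 in WT PBS libraries, so at equal depth WT 5-FU libraries overlapped with the others.

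The leading gene held 30.5 ± 14.8% of Ighv counts in mutant and 55.9 ± 20.4% in WT 5-FU libraries (SD, n = 3 each, exact permutation p = 0.2). It held 36.3 ± 12.7% in mutant and 35.4 ± 19.5% in WT PBS libraries (SD, n = 5 each, exact permutation p = 0.905). The 5-FU difference of -25.4 points was larger than either SD but the ranges overlapped, and it was -33.0 to -13.8 points with a library left out. The PBS difference of 0.869 points turned sign when single libraries were left out.

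**Figure D3:**
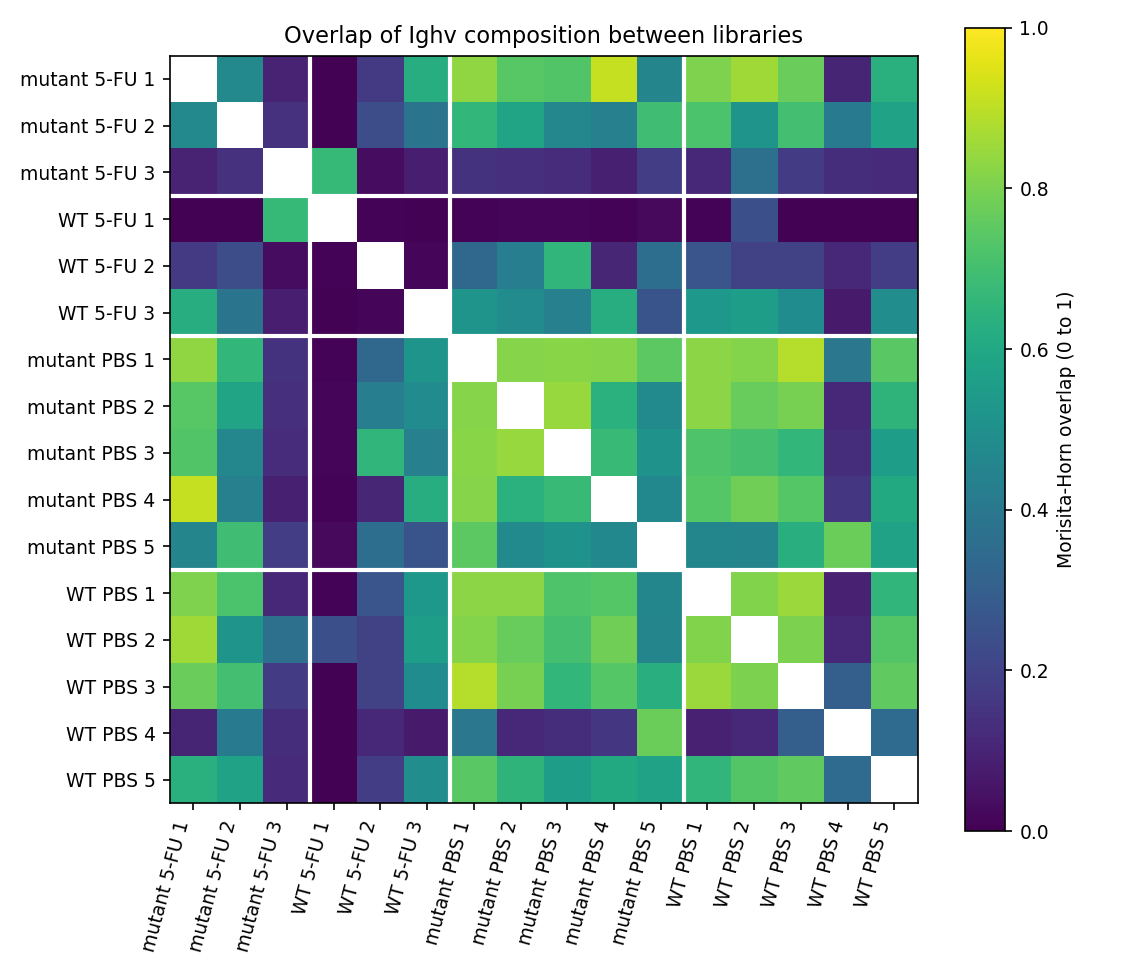
Morisita-Horn overlap of Ighv composition between each pair of the 16 libraries (colour, 0 for no shared abundance to 1 for the same composition), in the order mutant 5-FU, WT 5-FU, mutant PBS and WT PBS on both axes, with white lines between groups and a blank diagonal. Most pairs of PBS libraries share much of their composition, the fourth WT PBS library is low with all of them but the fifth mutant PBS library (0.774), and the 3 WT 5-FU libraries share almost nothing with each other.

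How far libraries shared their V genes was described by the Morisita-Horn overlap of each pair, which weights genes by abundance. The median was 0.711 among the 5 mutant PBS libraries (10 pairs), 0.695 among the 5 WT PBS libraries (10 pairs) and 0.706 between the PBS genotypes (25 pairs). Libraries of different genotype were thus as alike after PBS as libraries of the same genotype. After 5-FU the median was 0.143 among mutant libraries (3 pairs) and 0.00808 among WT libraries (3 pairs), whose highest pair reached 0.0194. The fourth WT PBS library overlapped by 0.0931 to 0.397 with the other PBS libraries except the fifth mutant one, at 0.774 (0.828 without Ighv11-2), and Ighv5-16 led both. The most alike pair of 2 treatments joined the first mutant 5-FU library and the fourth mutant PBS library, at 0.913, both with Ighv11-2 as the leading gene.

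Much of the shared composition was Ighv11-2. Without it, the median overlap was 0.504 within mutant PBS, 0.360 within WT PBS and 0.420 between them. It was 0.129 within mutant 5-FU and 0.00579 within WT 5-FU libraries. The third mutant 5-FU library and the first WT 5-FU library, both led by Ighv1-49, were the most alike pair between the 5-FU genotypes. Their overlap was 0.671 with Ighv11-2 and 0.680 without it. The share of Ighv10-1, second in that mutant library with 16.9%, was 0% in that WT library (0 of 2516 counts, which allows up to 0.119%).

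Sharing gene by gene gave the same picture. At least 1% of Ighv counts in at least 1 library was reached by 50 of the 185 genes, and 13 of these reached it in a single library. Only 6 genes reached it in 8 or more libraries: Ighv11-2 in 15, Ighv7-1 in 13, Ighv6-3 in 12, Ighv1-55 in 11, Ighv9-3 in 10 and Ighv5-16 in 9. Ighv11-2 was the only gene with at least 0.1% in all 16, though on 13 counts in the first and 11 in the second WT 5-FU library. Counted per length, 58 genes reached 1% in at least 1 library, 21 of them in a single library, and Ighv11-2 reached it in 14.

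The V families differed in the same way. Family 1, by far the largest with 93 genes, held 38.8 ± 20.0% of Ighv counts in mutant 5-FU and 61.1 ± 23.4% in WT 5-FU libraries (SD, n = 3 each). It held 19.7 ± 5.40% in mutant and 25.8 ± 9.24% in WT PBS libraries (SD, n = 5 each). Family 11, with only 2 genes, held almost the same shares as Ighv11-2 alone. Along the locus, the 62 genes nearest to Ighm, 150 to 892 kb away, held 48.4 ± 25.1% in mutant and 32.1 ± 26.7% in WT 5-FU libraries (SD, n = 3 each), and 70.3 ± 9.60% in mutant and 66.9 ± 11.5% in WT PBS libraries (SD, n = 5 each). Ighv11-2, Ighv7-1 and Ighv5-16 all lie in that stretch, at 626, 474 and 416 kb, and family 1 lies farther out, so these shares are not separate results.

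Heavy and light chain shares moved together for several genes. Over the 10 PBS libraries, the Ighv11-2 share of Ighv counts and the Igkv14-126 share of Igkv counts had Pearson's r = 0.90 (permutation p = 0.00091, adjusted p = 0.00273 over 3 relations) and Spearman's rho = 0.81 (permutation p = 0.00737, adjusted p = 0.0221). Igkv14-126 held 65.6% of Igkv counts in the fourth mutant PBS library, where Ighv11-2 was highest, and 21.6% in the fourth WT PBS library, where it was lowest. Without these 2 libraries, the farthest from the median, r was 0.67 over 8 (permutation p = 0.0665), which missed the threshold. Over all 16 libraries, as a description, r was 0.93 and rho 0.94, and the next Igkv gene, Igkv5-43, had r = 0.56. In the 6 PBS libraries whose sample names start with 0, r was 0.57 (permutation p = 0.226), and the other 4 were too few. After 5-FU, Igkv14-126 held 43.9, 15.9 and 2.40% in mutant libraries, against 0.672, 5.70 and 56.8% in WT libraries, in the same order as Ighv11-2. Both shares come from the same library.

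**Figure D4:**
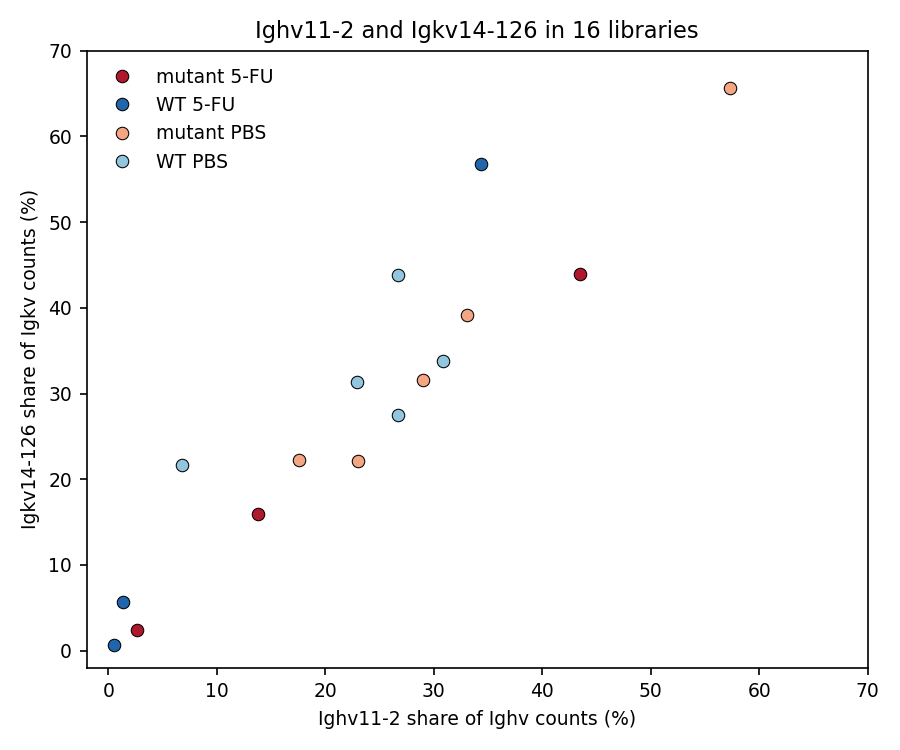
Ighv11-2 share of Ighv counts (x axis, %) against Igkv14-126 share of Igkv counts (y axis, %), 1 point per library, coloured as mutant 5-FU, WT 5-FU, mutant PBS and WT PBS. The highest point is the fourth mutant PBS library at 57.3 and 65.6%, and the libraries with almost no Ighv11-2 have little Igkv14-126.

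The other 9 leading genes were set against the 37 Igkv genes with a mean share of at least 0.5%, over all 16 libraries, as a description. Ighv5-16 was most like Igkv1-88 (r = 0.99, rho = 0.93), Ighv7-1 most like Igkv15-103 (r = 0.97, rho = 0.88) and Ighv9-3 most like Igkv19-93 (r = 0.89, rho = 0.83). Igkv15-103 held 56.1% of Igkv counts in the second WT 5-FU library, which was led by Ighv7-1. For the 6 others the highest r was 0.56 to 0.92, but rho was lower: 0.55 for Ighv6-3, 0.52 for Ighv1-49, 0.36 for Ighv1-55, 0.34 for Ighv1-53, 0.30 for Ighv1-9 and -0.11 for Ighv1-64. Each pair was picked as the highest of 37, so its size has no test.

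The constant gene most used was Ighm, which encodes the IgM heavy chain, with 62.6 to 98.6% of heavy constant counts in every library. Igha, which encodes IgA, held 30.6% in the third WT 5-FU library and 18.3% in the third mutant 5-FU library. No relation between the Ighm share and the Ighv11-2 share was detectable over the 10 PBS libraries (r = -0.0097, permutation p = 0.973, rho = -0.14, permutation p = 0.706). Nor was one detectable between the effective number of Ighv genes and the Ighv share of all counts (r = 0.048, permutation p = 0.892, rho = -0.055, permutation p = 0.892).

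Single genes were compared with edgeR's quasi-likelihood test on all 16482 genes that passed a filter on low counts, with Benjamini-Hochberg adjustment over all of them. Of the 185 Ighv genes 90 passed, and the other 95 were too low. The filter looked at all 16 libraries, so a gene could pass through some groups while absent from another. Between mutant and WT PBS libraries the edgeR test called 0 of the 90 at an adjusted p under 0.05, while 0.0182% of all genes were called. The unadjusted edgeR p was under 0.05 for 11 of the 90, against 541 of all 16482 genes (3.28%). DESeq2 called 3 Ighv genes among 26 genes in all. The median log2 fold change of the 90 was -0.03, against -0.02 for all genes tested, and 45 had a higher and 45 a lower mean CPM in mutants. The smallest p belonged to Ighv3-4, Ighv5-12, Ighv8-12, Ighv1-58 and Ighv4-2.

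For Ighv5-12 and Ighv8-12 the libraries of a group differed widely. Ighv5-12 had 0, 0.156, 0, 0.425 and 0.298 CPM in mutant PBS libraries, against 140.2, 93.0, 109, 0.299 and 0 CPM in WT PBS libraries. Ighv8-12 had at most 0.260 CPM in mutant PBS libraries, against 134, 212, 69.0, 0.112 and 0.214 CPM in WT PBS libraries. In both cases 3 WT libraries held the gene and 2 were as low as the mutants (edgeR adjusted p = 1 for both).

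After 5-FU the edgeR test also called 0 of the 90 between mutant and WT libraries, against 1.95% of all genes called in either direction and 1.49% called higher. The unadjusted edgeR p was under 0.05 for 46 of the 90, against 3036 of all 16482 genes (18.4%). DESeq2 called 50 Ighv genes, all higher in mutants, among 1293 genes in all. All 3 mutant libraries were above all 3 WT libraries for 37 of the 90 (41.1%), against 21.5% of all genes tested. No count in any WT 5-FU library was found for 45 of the 90. Such genes passed the filter only through other groups, and with the 2 5-FU groups alone 27 Ighv genes passed it. These counts and the ratios that follow therefore partly reflect the filter. With a gene at 0 set to a floor of 3 counts per library, the median log2 ratio of mean CPM was 6.58, and the median fitted log2 fold change, which is no bound for such genes, was 9.32, against 0.07 for all genes tested.

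Ighv7-3, a relative of Ighv7-1, had 127, 243 and 2.82 CPM in mutant 5-FU libraries, against 0, 0 and 0 CPM in WT 5-FU libraries. Its mean was at least 1306-fold higher in mutants when 3 counts per library stand for 0 (edgeR adjusted p = 0.0531). Ighv1-74 had 11.1, 224 and 59.8 CPM in mutant libraries, against 0.121, 0.0798 and 0.114 CPM in WT libraries (edgeR log2 fold change 9.82 ± 2.38 SE, adjusted p = 0.0551). Ighv11-2 had 7067, 1399 and 73.5 CPM in mutant libraries, against 0.394, 0.292 and 84.2 CPM in WT libraries, so the groups overlapped (log2 fold change 6.65 ± 2.26 SE, edgeR adjusted p = 0.153). Without the third WT 5-FU library, the one with 84.2 CPM, the Ighv11-2 value was 12.99 with an edgeR adjusted p of 0.0344.

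In WT mice many Ighv genes were lower after 5-FU than after PBS. The edgeR test called 21 of the 90 (23.3%) lower after 5-FU than after PBS and 0 higher, while 9.31% of all genes tested were called lower and 5.55% higher. Every WT 5-FU library was below every WT PBS library for 42 of the 90 (46.7%), against 15.8% of all genes. Members absent after 5-FU in WT mice passed the filter only through other groups, so these values partly reflect the filter. With these 2 groups alone 69 Ighv genes passed it, of which 23 were called lower, among 2311 of 15271 genes called in all. The median log2 ratio with 0 set to the floor was -8.28, and the median fitted value -10.94, against -0.11 for all genes. The number of Ighv genes called depended on single libraries. It was 3, 3 and 5 without the first, the second or the third WT 5-FU library, where 714, 526 and 1370 genes were called in all. It was 13 and 12 without the first or the second WT PBS library (1705 and 1523 in all). It was 7 with the way sample names are written as a covariate (1012 in all), 11 with no filter (1719 in all) and 74 with DESeq2, which called 4572 genes in all.

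Among the genes that fell, Ighv5-16 had 0.303, 0.372 and 0 CPM in WT 5-FU libraries, against 56.8, 194, 1060, 15110 and 434 CPM in WT PBS libraries (log2 fold change -13.80 ± 3.25 SE, edgeR adjusted p = 0.0171). Ighv7-1 had 0.334, 10.7 and 0 CPM after 5-FU, against 1772, 1675, 595, 1435 and 251 CPM after PBS (log2 fold change -8.27 ± 2.31 SE, edgeR adjusted p = 0.0332). Ighv11-2, with 0.394, 0.292 and 84.2 CPM after 5-FU against 6206, 7017, 2929, 1470 and 873 CPM after PBS, did not overlap but missed the threshold (log2 fold change -7.03 ± 2.26 SE, edgeR adjusted p = 0.0531). Without the third WT 5-FU library it passed at -13.37 (edgeR adjusted p = 0.00738), and without the fifth WT PBS library at -7.28 (edgeR adjusted p = 0.0479).

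In mutants only 2 of the 90 (2.22%) passed the edgeR test, both lower after 5-FU than after PBS, against 1.36% of all genes called lower. The median fitted log2 fold change of the 90 was -0.92 and that of all genes -0.03. Every mutant 5-FU library was below every mutant PBS library for 8 of the 90 (8.89%), against 4.94% of all genes. Every one was above for 1 of the 90 (1.11%), against 5.05% of all genes. Members low after 5-FU in mutants passed the filter through other groups, so these values partly reflect the filter. With these 2 groups alone 80 Ighv genes passed it, of which 4 were called lower. Ighv11-2 had 7067, 1399 and 73.5 CPM after 5-FU, against 6884, 4535, 6244, 3826 and 339 CPM after PBS (log2 fold change -0.62 ± 1.61 SE, edgeR adjusted p = 0.924). The test of the interaction, whether the response to 5-FU differed between genotypes, called 0 of the 90 with edgeR, against 0.589% of all genes. Its unadjusted edgeR p was under 0.05 for 36 of the 90, against 1788 of all 16482 genes (10.8%). Of the 90, 45 had no count in any WT 5-FU library and passed the filter only through other groups. This count of small p-values therefore partly reflects the filter, and the fitted interaction of such genes is no bound. DESeq2 called 42 Ighv genes among 597 genes in all.

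The 2 genes that fell in mutants, Ighv1-23 and Ighv1-62-1, also had the smallest p in WT mice, and they behaved unlike the abundant members. Neither exceeded 0.118 CPM in any 5-FU library, so both passed the filter only through PBS libraries. That they were tested for a fall therefore partly reflects the filter. Both belong to family 1 and are annotated as V genes, at chr12:114764450-114764883 and chr12:115386697-115387128 on the minus strand. Their last 290 transcript bases follow, with the framework 3 codons in capitals as before. In Ighv1-62-1 these letters were not found in the last 40 bases.
Ighv1-23: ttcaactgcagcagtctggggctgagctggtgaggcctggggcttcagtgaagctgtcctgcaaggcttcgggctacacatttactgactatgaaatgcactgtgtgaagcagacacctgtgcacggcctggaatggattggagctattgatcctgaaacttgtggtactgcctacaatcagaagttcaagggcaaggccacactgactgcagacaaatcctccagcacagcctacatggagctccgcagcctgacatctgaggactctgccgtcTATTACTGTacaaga
Ighv1-62-1: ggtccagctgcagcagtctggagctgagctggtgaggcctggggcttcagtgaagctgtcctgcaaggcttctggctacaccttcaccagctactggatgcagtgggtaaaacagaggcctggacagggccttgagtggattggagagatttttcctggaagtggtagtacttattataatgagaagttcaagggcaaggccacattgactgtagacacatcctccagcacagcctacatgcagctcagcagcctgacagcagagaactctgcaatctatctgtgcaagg
Ighv1-23 was 98.3% identical to Ighv1-15 and Ighv1-62-1 93.5% identical to Ighv1-56. The unique share of 101-base windows was 100% for Ighv1-23 and 98.0% for Ighv1-62-1. The levels of Ighv1-15 and Ighv1-23 did not move together: in the fourth mutant PBS library Ighv1-15 stood at 323 CPM and Ighv1-23 at 1.31 CPM, and in the fourth WT PBS library Ighv1-15 stood at 0 and Ighv1-23 at 1.83 CPM.

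**Figure D5:**
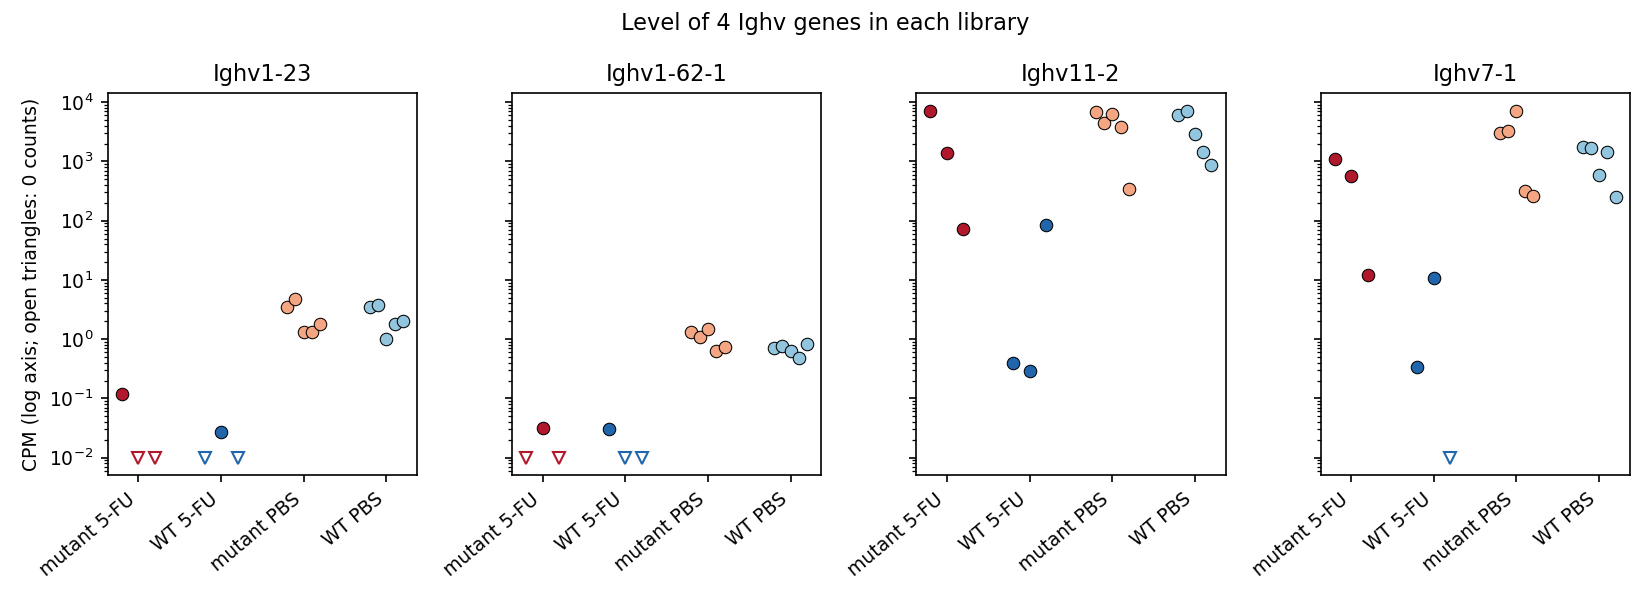
Level of Ighv1-23, Ighv1-62-1, Ighv11-2 and Ighv7-1 in CPM (log axis) in each library, grouped as mutant 5-FU, WT 5-FU, mutant PBS and WT PBS, with open triangles for libraries with 0 counts. Ighv1-23 and Ighv1-62-1 lie in a narrow band in the 10 PBS libraries and near 0 after 5-FU in both genotypes, while in mutant 5-FU libraries Ighv11-2 runs from 73.5 to 7067 CPM and Ighv7-1 from 12.3 to 1101 CPM.

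Ighv1-23 had 0.118, 0 and 0 CPM in mutant 5-FU libraries, against 3.47, 4.83, 1.32, 1.31 and 1.79 CPM in mutant PBS libraries. In WT mice it had 0, 0.0266 and 0 CPM after 5-FU, against 3.50, 3.76, 0.997, 1.83 and 2.02 CPM after PBS. The groups did not overlap in either genotype. The fold was 64.7 in mutants (95% counting interval 22.2 to 314, from 3 counts after 5-FU) and 273 in WT mice (49.0 to 10789, from 1 count), with edgeR adjusted p = 0.00525 and 0.0011. The interaction did not pass (edgeR adjusted p = 0.717).

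Ighv1-62-1 had 0, 0.0317 and 0 CPM in mutant 5-FU libraries, against 1.31, 1.09, 1.496, 0.621 and 0.746 CPM in mutant PBS libraries. In WT mice it had 0.0303, 0 and 0 CPM after 5-FU, against 0.699, 0.752, 0.635, 0.486 and 0.826 CPM after PBS. The fold was 99.7 in mutants (17.9 to 3938) and 67.2 in WT mice (12.1 to 2653), each from 1 count after 5-FU, with edgeR adjusted p = 0.00303 and 0.00203. Both genes kept an adjusted p under 0.05 in each of the 15 alternative fits of either comparison.

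Under PBS these 2 genes were the most even members. Over the 10 PBS libraries the highest CPM was 3.08 times the lowest for Ighv1-62-1 and 4.85 times for Ighv1-23, with coefficients of variation of 37.7 and 52.4%, and these were the only 2 of the 90 with a ratio below 5. The median coefficient of variation was 161%. For 84 of the 90 the highest library was over 100 times the lowest or the lowest was 0. Ighv11-2 ran from 339 to 7017 CPM, a ratio of 20.7. The pair was singled out by the tests after 5-FU, and its evenness under PBS was looked at only then. Those tests used the same PBS libraries and weigh the spread within groups, which favours even genes. Its evenness is therefore not a separate result.

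Early B cell precursor genes were also lower after 5-FU in both genotypes. Of 5 pro-B and pre-B markers (Rag1 and Rag2, which cut V, D and J segments, Dntt, which adds bases at the joins, and Igll1 and Vpreb1 of the surrogate light chain), 3 fell after 5-FU in mutants and 5 in WT mice by the edgeR test. Their summed level was 6.497 to 18.5 CPM in mutant 5-FU, 33.6 to 146 CPM in WT 5-FU, 242 to 1028 CPM in mutant PBS and 348 to 786 CPM in WT PBS libraries. Dntt alone was most of this sum in every PBS and WT 5-FU library. Rag1 stood at only 0.360 to 2.70 CPM and Rag2 at 4.84 to 23.2 CPM in PBS libraries. Of a longer list of 14 recombination and pre-B receptor genes, 3 fell in mutants and 7 in WT mice by the edgeR test, with medians of -1.30 and -1.72 on the log2 scale. Its 7 end-joining genes (Lig4, Xrcc4, Xrcc5, Xrcc6, Prkdc, Dclre1c and Nhej1) did not pass in either genotype, with log2 fold changes of -0.41 to 0.33 in mutants and -0.68 to 0.65 in WT mice. Rag1 had 0 counts in all 3 mutant 5-FU libraries. Dntt stood at 5.58 to 8.73 CPM in mutant 5-FU, against 217 to 904 CPM in mutant PBS libraries, and at 31.6 to 143 CPM in WT 5-FU, against 311 to 739 CPM in WT PBS libraries. Of 6 LSK genes (Kit, Ly6a, Cd34, Flt3, Cd48 and Gata2), 2 fell after 5-FU in mutants, and 1 fell and 1 rose in WT mice by the edgeR test. Flt3 stood at 17.8 to 22.7 CPM in mutant 5-FU, 104 to 162 in WT 5-FU, 204 to 434 in mutant PBS and 343 to 507 in WT PBS libraries. Which cells of the sorted fraction held the precursor transcripts, and their part in the level of the pair, was not tested.

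Genes of antibody-secreting cells differed between groups as well. Of the 7 plasma cell markers (Prdm1, Irf4, Xbp1, Sdc1, Mzb1, Tnfrsf17 and Jchain), 5 were higher in mutant than in WT 5-FU libraries by the edgeR test, 7 fell after 5-FU in WT mice and 0 passed after 5-FU in mutants. Their summed level was 2233 to 19142 CPM in mutant 5-FU, 137 to 374 CPM in WT 5-FU, 1546 to 73528 CPM in mutant PBS and 3107 to 64291 CPM in WT PBS libraries, and none was at 0 throughout a group. Most of this sum was Xbp1 in WT 5-FU libraries (112 to 261 CPM) and Jchain in all others, so the sums weigh different genes. Jchain, which links IgM and IgA into polymers, had a median of 8803 CPM in mutant and 33.1 CPM in WT 5-FU libraries (log2 fold change 7.69 ± 1.78 SE, edgeR adjusted p = 0.0451). Of 9 B cell genes, 4 were higher in mutant than in WT 5-FU libraries, with summed levels of 71.5 to 221 and 23.4 to 34.5 CPM, and 2 were at 0 in all WT 5-FU libraries. Markers of other cells also differed: of 6 T and NK cell genes, 2 were higher in mutant than in WT 5-FU libraries and 5 fell after 5-FU in WT mice, with summed levels of 9.10 to 27.6 CPM in mutant 5-FU, 1.70 to 10.4 in WT 5-FU, 4.51 to 10.6 in mutant PBS and 6.77 to 25.8 in WT PBS libraries. Of 5 myeloid genes, 1 was higher in mutant than in WT 5-FU libraries and 3 fell after 5-FU in WT mice by the edgeR test. Their summed levels were 278 to 871 CPM in mutant 5-FU, 5.34 to 228 in WT 5-FU, 1616 to 17435 in mutant PBS and 1895 to 16110 in WT PBS libraries. Most of the mutant 5-FU sum was Ly6c2, at 195 to 845 CPM, against 1.33 to 26.6 CPM in WT 5-FU libraries. Adgre1 was also higher in every mutant 5-FU library (1.81 to 22.0 against 0.160 to 0.728 CPM). Ccr2, Elane and S100a8 overlapped between the 5-FU genotypes, so the sum does not stand for all myeloid genes. The part of these cells in the Ighv results was not tested.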

How the data were processed

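The 16 deposited tables hold, per the file headers, an expected count per gene, which RSEM estimates and which may be fractional. They also hold TPM and FPKM, which the authors' RSEM run scaled by effective length, and FPKM entered no result. RSEM 1.3.1, FastQC 0.11.2 and mm10 (GRCm38) are named in the submitters' processing notes, and no aligner or annotation is named there. Shares were computed from unrounded expected counts. For single genes, counts were rounded, filtered (filterByExpr, minimum count 10) and tested with edgeR 4.0.16 (TMM factors, robust quasi-likelihood fit, 1 mean per group, all 16 libraries), with Benjamini-Hochberg adjustment over 16482 genes. The script was tested on simulated data. Standard errors are the log2 fold change over the square root of F. DESeq2 1.42.0 was an alternative. Per-library measures were compared by exact two-sided permutation, and relations by 100000 permutations. Sequences and coordinates are from GENCODE M21, and alignments were made with Biopython 1.88. The Ighv genes, lists and tests were chosen with earlier results of these data known. Named members were Ighv11-2, the 3 leading genes of each library, the 10 with the largest mean share and the 5 with the smallest p in each comparison. Any other member was named after its values were seen. Same-numbered libraries had correlations of 0.165 to 0.569 in the PBS genotype comparison and -0.158 to 0.168 in the other 3 comparisons. Libraries of different number were not compared, so these values cannot show whether the numbers pair libraries. The main tests leave the numbers out, and the blocked fit called no Ighv gene in the PBS genotype comparison either.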

Additional observations from a re-analysis of the deposited data

Results flagged for a closer look

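In 26 checks of single PBS libraries against the other 4 of their group, over the 4 measures and the shares of the leading genes, 6 values, from 5 libraries, lay far from the rest by Dixon's criterion. Chance flags about 1 in 20 such groups where values are normally distributed, which V gene shares need not be. The genes checked were also chosen for a high mean share, which a single high library can raise. The number of flags is therefore no test. In the fourth WT PBS library Ighv5-16 held 69.9% of Ighv counts, which set both its own share and the share of the leading gene apart. Ighv1-49 held 11.5% in the second WT PBS library, where the other 4 had at most 0.0977%. Ighv1-9 held 22.1% in the fifth WT PBS library and 2.67% in the second mutant PBS library. Ighv1-53 held 6.63% in the fifth mutant PBS library.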

How the results depend on the processing

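In the edgeR fits, RLE scaling and TMM without immunoglobulin genes changed no count of Ighv genes called. Genes called in all follow each count in brackets. For mutant against WT after PBS the count was 3 with DESeq2 (26) and 0 in the other fits. For mutant against WT after 5-FU it was 50 with DESeq2 (1293) and 8 of 27 tested with these 2 groups alone (2080 of 14781). It was 7 with the replicate block (1524 of 16482) and 0 to 2 with a library left out (17 to 206). For 5-FU against PBS in WT it was 11 with no filter (1719 of 27795), 74 with DESeq2 (4572) and 49 with the replicate block (7324 of 16482). It was 7 with the way sample names are written (with or without a leading zero) as a covariate (1012 of 16482). With a library left out it was 3 to 30 (526 to 3232). In mutants it was 12 with DESeq2 (898), 4 with the 2 groups alone (210 of 15560) and 6 with the block (1014 of 16482). It was 6 with the name covariate (887 of 16482) and 2 in each fit with a library left out (156 to 405). For the interaction it was 42 with DESeq2 (597), 3 with the block (383 of 16482) and 0 to 2 with a library left out (11 to 309). The causes were not tested. Whether the replicate numbers pair libraries is not known.

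The 5-FU minus PBS difference in Ighv share in mutants (-0.0897 points) was 0.311 by TPM and -0.395 to 0.256 with a library left out. The effective number there differed by -0.412 to 3.69 and the leading share by -12.2 to 2.31 with a library left out, the leading share also by 0.752 both in same-numbered pairs and among names with a leading zero. For mutant minus WT, the leading share after PBS differed by -4.40 to 9.49 with a library left out and by -0.398 among names without a leading zero, and the Ighv11-2 share after 5-FU by -3.85 to 19.05. The relation of Ighv11-2 with Igkv14-126 had r = 0.67 without 2 libraries and 0.57 in the 6 PBS libraries with a leading zero, a choice made after seeing the data. That of Ighv11-2 with Ighm was 0.0028 by TPM, 0.012 over all 16 libraries and 0.049 in those 6, and that of effective number with Ighv share -0.024 by TPM. At thresholds of 0.1 and 5% of Ighv counts, 97 and 19 genes were reached in any library. For Ighv11-2, mutant minus WT after PBS, the log2 fold change was -0.063 with the block and -0.013 to 0.61 with a library left out, against 0.24. All mutant 5-FU sample names have a leading zero and no WT 5-FU name has one, so genotype and name cannot be told apart there. The numbers in the sample names also differ between the genotypes within either treatment, so the same limit holds after PBS. WT 5-FU libraries, with 841 to 6447 Ighv counts, limit every result that rests on them.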
